A study of Mus musculus with 8 samples.

Results

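Hepatic iron handling was followed through 10 genes that cover its hormone, receptors, carriers, exporter and stores. They are Hamp and Hamp2 (the hepcidins), Bmp6, Tfr2, Tfrc, Trf, Slc40a1, Fth1, Ftl1 and Hpx, chosen by symbol among the 23282 rows of the deposited count tables, and all 10 symbols had a row. Total RNA from mouse liver was sequenced with a 3′-end method that reads each transcript near its tail. The control group was C57BL/6 mice injected with saline, and the endotoxemic group was C57BL/6 mice injected with lipopolysaccharide (LPS), a bacterial cell wall component, at 25 mg/kg. The LGK974 group received LGK974, an inhibitor of the enzyme that lets cells secrete Wnt proteins, and the labels give no dose and no LPS for it. The study's text gives 60 mg/kg LGK974 together with 25 mg/kg LPS, and livers taken 6 h after LPS. All mice are labelled as males of 4 weeks.

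The labels list 2 control, 4 endotoxemic and 2 LGK974 libraries. Endotoxemic libraries 1 and 3 held identical counts on all 23282 rows, as did libraries 2 and 4, so each pair was counted as 1 sample and n was 2 in every group. Total counts of the 6 distinct libraries ranged from 9142116 to 15222439. Nothing says that the libraries of a group came from separate mice, so p-values measure the spread between these libraries, which may be technical. Xist, the RNA that coats an inactive X chromosome, had 1171 to 3115 counts in the control and endotoxemic libraries and 3 and 7 in LGK974 libraries. The Y-linked gene Ddx3y had 0 counts in the control and endotoxemic libraries and 1755 and 1392 in LGK974 libraries. The control and endotoxemic libraries thus went against their male label, and sex and LGK974 cannot be told apart in any comparison with the LGK974 group.

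The tables list genes in genomic order, and 579 of the 23134 rows with a RefSeq position stood among rows from elsewhere in the genome. Tfr2 and Bmp6 were among them. The Tfr2 row stood between G6pc3 and Asb16 on chromosome 11, although Tfr2 lies on chromosome 5, and the Bmp6 row stood between Tvp23a and Dexi on chromosome 16, although Bmp6 lies on chromosome 13. For 445 such rows the gene that belongs at the place was found. There the control and endotoxemic levels had a Spearman rho of 0.065 as deposited, against 0.931 for rows in order, and of 0.807 once the endotoxemic and LGK974 counts were given to the gene of the place. Each rho runs across genes, and genes are no replicates of a group. Values of Tfr2, Bmp6 and other such genes are therefore given both as deposited and with reassigned symbols.

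Hepcidin is a peptide hormone made by hepatocytes. It binds ferroportin, the only known iron exporter of mammalian cells, and causes its breakdown, so that iron stays in macrophages, hepatocytes and gut cells. Its gene is switched on by bone morphogenetic proteins (BMPs) acting through SMAD factors when iron is plentiful, and by interleukin-6 acting through STAT3 during inflammation. Ferritin and the transferrin receptor are controlled mostly after transcription, by proteins that bind iron-responsive elements in their mRNAs. A count of mRNA does not show the part of this control that acts on translation.

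Mice have a pair of neighbouring hepcidin genes on the minus strand of chromosome 7. The 250 bases before each start are shown because Hamp2 passed the test in every comparison and Hamp in none on the counts as deposited. They come from RefSeq (GRCm38.p6), at chr7:30944030-30944279 for Hamp and chr7:30924182-30924431 for Hamp2. Capitals mark GGCGCC, a core sequence of BMP-responsive elements, with the stretch aligned to it in Hamp2, and TTCNNNGAA, the spacing that STAT factors bind.
Hamp: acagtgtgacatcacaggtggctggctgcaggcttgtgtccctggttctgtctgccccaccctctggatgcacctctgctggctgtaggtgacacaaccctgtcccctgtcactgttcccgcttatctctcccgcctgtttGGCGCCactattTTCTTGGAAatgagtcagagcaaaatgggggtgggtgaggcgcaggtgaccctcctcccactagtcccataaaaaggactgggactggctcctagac
Hamp2: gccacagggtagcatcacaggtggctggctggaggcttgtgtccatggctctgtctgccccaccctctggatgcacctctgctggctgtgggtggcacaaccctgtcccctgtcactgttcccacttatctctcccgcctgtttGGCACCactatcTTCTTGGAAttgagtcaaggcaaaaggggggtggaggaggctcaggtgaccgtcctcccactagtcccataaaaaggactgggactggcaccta
Over 297 aligned bases, which include 50 bases after each start, the pair was 92.9% identical. GGCGCC began at -109 in Hamp, and the aligned stretch of Hamp2 differed by G4A, counted from 1 at the 5′ end of the stretch with the Hamp base first. TTCNNNGAA began at -97 in Hamp and at -94 in Hamp2, with 6 bases between it and the other stretch in both. Both motifs read the same on either strand. Of 32851 promoter windows from 250 bases before to 50 after a start, 11.9% held GGCGCC, 8.3% held TTCNNNGAA and 0.645% held both. Promoter entries were matched for 8 of the 10 genes, and Tfrc also held GGCGCC.

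Iron-responsive elements are shown for 4 members because the pattern was found in these genes and in no other member. The search pattern was a C, 5 stem bases, the loop CAGTGN in capitals and 5 bases that pair with the stem, on the transcript strand. Each window of 30 bases comes from the GENCODE M21 transcripts (GRCm38). The Fth1 window lies at chr19:9982732-9982761 on the plus strand, the Ftl1 window at chr7:45459778-45459807 on the minus strand, the Slc40a1 window at chr1:45925464-45925493 on the minus strand and the first of 4 Tfrc windows at chr16:32631219-32631248 on the plus strand.
Fth1: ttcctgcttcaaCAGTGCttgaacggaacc
Ftl1: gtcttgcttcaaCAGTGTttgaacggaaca
Slc40a1: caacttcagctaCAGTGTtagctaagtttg
Tfrc: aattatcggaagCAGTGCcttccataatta
The matches of Fth1, Ftl1 and Slc40a1 were in the 5′ UTR and those of Tfrc in the 3′ UTR. Among 21877 genes searched, 20 (0.09%) had a match in the 5′ UTR and 118 (0.54%) in the 3′ UTR.

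Values below are CPM (counts scaled to library size) after TMM normalization, which scales libraries to a common composition. Differences are log2 fold changes with their standard error (SE) from edgeR's quasi-likelihood test, and a gene was called where the Benjamini-Hochberg adjusted p over all genes tested was below 0.05. Of the 10 genes, 9 passed the filter on low counts and Bmp6 did not. In the endotoxemic group relative to the control group, 5 of the 9 were called, of which Hpx was higher and Hamp2, Tfr2, Slc40a1 and Ftl1 were lower, while 43.4% of all 12701 genes tested were called (20.4% higher and 23% lower). In the LGK974 group relative to the endotoxemic group, Hamp2 alone was called, against 5.62% of all genes (2.8% higher and 2.82% lower). In the LGK974 group relative to the control group the same 5 genes were called in the same directions, against 34.1% of all genes (16.4% higher and 17.7% lower). The libraries of the groups compared did not overlap for 77.1%, 52.5% and 68.1% of all genes in these 3 comparisons, so that an absence of overlap below is common. The count of members called is not far from the share of all genes in the comparisons with the control group, and the results below concern single genes. Both comparisons of the endotoxemic group share its libraries.

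**Figure D1:**
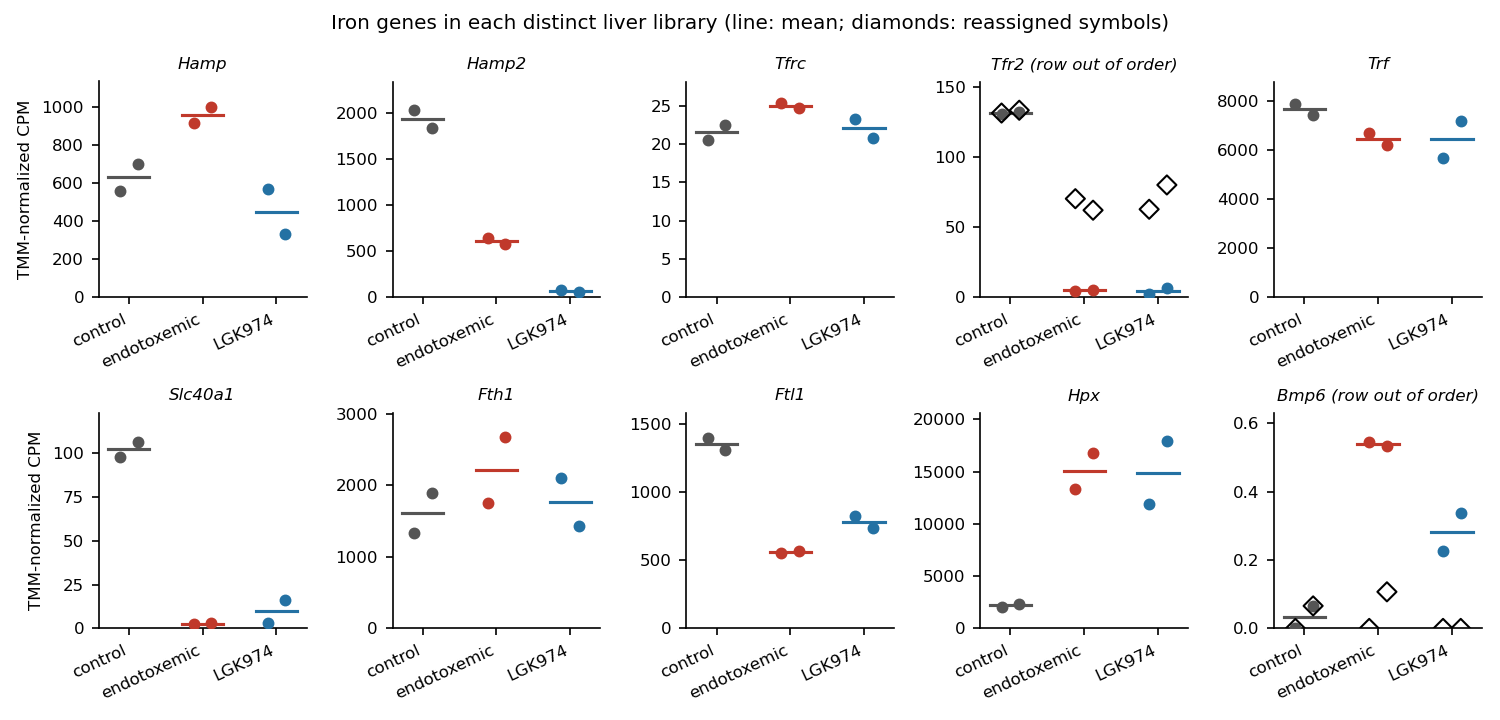
TMM-normalized CPM (y axes, from 0) of the 10 iron genes in each distinct library of the control, endotoxemic and LGK974 groups; points are libraries, lines are group means and open diamonds are values with reassigned symbols. Hamp2 falls from 1836 or more in control libraries to 78.2 or less in LGK974 libraries, and the deposited and reassigned values of Tfr2 differ.

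Hamp2 fell in both comparisons of the endotoxemic group, and no Hamp difference passed the test on the counts as deposited. Hamp, which encodes the active hormone, was at 557.5 and 699.6 CPM in control libraries, 911.4 and 995.2 in endotoxemic libraries and 567.2 and 329.4 in LGK974 libraries. Both endotoxemic libraries lay above all others, and the control and LGK974 libraries overlapped. The difference between the endotoxemic and control groups was 0.60 on the log2 scale (SE 0.27, edgeR adjusted p = 0.0986) and did not pass the threshold. It passed in 5 of 17 alternative settings. Such tallies include fits that leave 1 library in a group, whose p-values no longer hold that group's spread. They also include a fit that counts the identical libraries as separate samples. Without 1 library the difference ran from 0.44 to 0.78. The difference between the LGK974 and endotoxemic groups was -1.09 (SE 0.27, edgeR adjusted p = 0.0503), and it passed in 11 of 17 alternative settings. It was -1.53 without LGK974 library 1 and -0.75 without LGK974 library 2, each with 1 LGK974 library left.

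Hamp2, whose product is not known to control iron, was at 2030 and 1836 CPM in control libraries, 645.2 and 576.1 in endotoxemic libraries and 78.2 and 49.5 in LGK974 libraries. No groups overlapped. It fell 3.17-fold in the endotoxemic group relative to the control group (log2 -1.66, SE 0.24, edgeR adjusted p = 0.00064). LGK974 libraries were 9.57-fold below the endotoxemic libraries (log2 -3.26, SE 0.26, edgeR adjusted p = 0.000515). Both calls held in all 17 alternative settings. None of these settings separates sex from LGK974, so the part of either in the second difference was not tested.

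Within each library, Hamp2 had 3.64 and 2.62 counts per Hamp count in control, 0.708 and 0.579 in endotoxemic and 0.138 and 0.15 in LGK974 libraries. Such a ratio does not depend on the scaling of the library. The 2 transcripts were 94.6% identical over 410 aligned bases. In the last 200, the end that this method reads, they were 90.5% identical, with 19 differences. How well reads of the copies were told apart was not tested. The counts of both copies together were 2524 and 2549 CPM, scaled by total counts alone, in control, 1560 and 1610 in endotoxemic and 629.9 and 384.1 in LGK974 libraries.

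**Figure D2:**
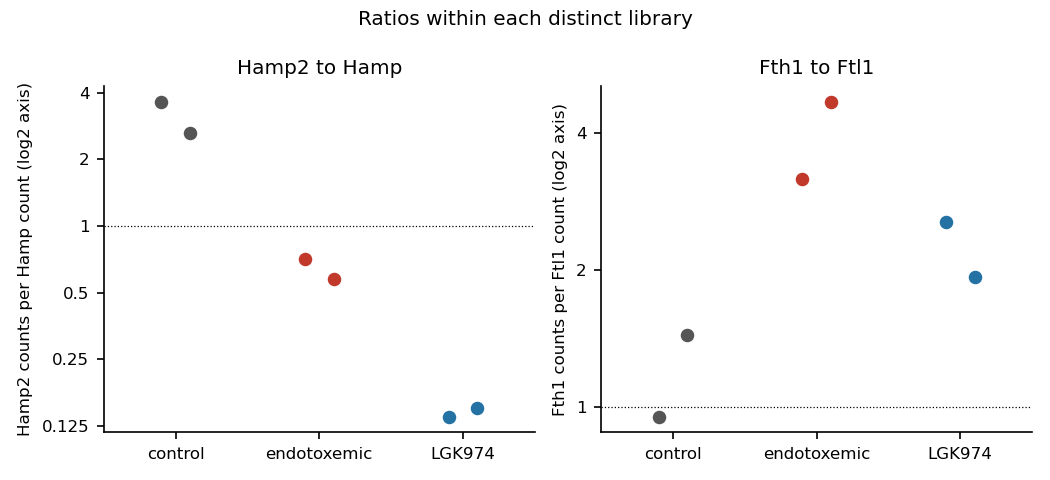
Ratio of counts (y axes, log2 scale) of Hamp2 to Hamp and of Fth1 to Ftl1 in each distinct library; points are libraries and the dotted line marks equal counts. The Hamp2 to Hamp ratio lies above 1 in both control libraries and below 1 in the 4 others, and the Fth1 to Ftl1 ratio lies between 0.953 and 4.67.

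Bmp6 is the BMP by which sinusoidal endothelial cells report iron stores to hepatocytes. Its row had 0 and 1 counts in control libraries, 5 and 5 in endotoxemic libraries and 3 and 5 in LGK974 libraries. With reassigned symbols it had 0 or 1 count in every library. The reassigned level was not detectable at this depth, where 3 counts correspond to 0.197 to 0.328 CPM. The 10 sinusoidal endothelial markers with reassigned symbols summed to 381.6 and 397.7 CPM in control libraries, 475.0 and 471.7 in endotoxemic libraries and 488.7 and 610.4 in LGK974 libraries. The members of that sum went opposite ways, since in the endotoxemic group relative to the control group 5 of the 10 were called lower and Lyve1 alone higher (49.8 and 36.0 CPM in control, 361.4 and 337.6 in endotoxemic libraries), with a median log2 difference of -1.13.

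Tfr2 encodes transferrin receptor 2, a sensor of iron-loaded transferrin on hepatocytes. As deposited it was at 130.9 and 132.7 CPM in control libraries, 4.58 and 5.12 in endotoxemic libraries and 2.34 and 6.7 in LGK974 libraries, a log2 difference of -4.76 (SE 0.42, edgeR adjusted p = 3.19e-05) between the endotoxemic and control groups. Between the LGK974 and endotoxemic groups the deposited difference was -0.09 (edgeR adjusted p = 0.925). It was 0.47 without LGK974 library 1 and -1.05 without LGK974 library 2, each with 1 LGK974 library left. These endotoxemic and LGK974 counts stand at the place of Hdac5. With reassigned symbols Tfr2 was at 131.7 and 133.7, then 70.3 and 62.1, then 62.8 and 80.2 CPM. The endotoxemic group was then lower by 2-fold (log2 -1.00, SE 0.20, edgeR adjusted p = 0.00367). The LGK974 group differed from the endotoxemic group by 0.11 (95% interval -0.34 to 0.56, edgeR adjusted p = 0.78).

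Tfrc, the transferrin receptor by which most cells take up iron, was at 20.6 and 22.5 CPM in control libraries, 25.4 and 24.7 in endotoxemic libraries and 23.3 and 20.8 in LGK974 libraries. The endotoxemic libraries were the highest by a small margin. No difference passed the test, with 0.22 (95% interval -0.26 to 0.69, edgeR adjusted p = 0.438) for the endotoxemic group relative to the control group and -0.18 (95% interval -0.66 to 0.29, edgeR adjusted p = 0.646) for the LGK974 group relative to the endotoxemic group.

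Trf, which encodes the plasma iron carrier transferrin, was at 7889 and 7441 CPM in control libraries, 6708 and 6188 in endotoxemic libraries and 5677 and 7193 in LGK974 libraries. The LGK974 libraries spanned both endotoxemic libraries. The endotoxemic group differed from the control group by -0.25 (95% interval -0.70 to 0.20, edgeR adjusted p = 0.336).

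Slc40a1, which encodes ferroportin, was at 97.8 and 106.3 CPM in control libraries, 2.4 and 2.88 in endotoxemic libraries and 3.32 and 16.4 in LGK974 libraries. Every library of the other groups lay far below the control libraries, and the LGK974 libraries differed from each other more than the endotoxemic ones. Slc40a1 fell 38.5-fold in the endotoxemic group relative to the control group (log2 -5.27, SE 0.65, edgeR adjusted p = 0.000218). The LGK974 group was 1.90 above the endotoxemic group on the log2 scale (SE 0.63, edgeR adjusted p = 0.109), which did not pass. That difference was 2.63 without LGK974 library 1 and 0.33 without LGK974 library 2, and so depended on the library kept. It passed in 3 of 17 alternative settings. These were no filter on low counts, the identical libraries counted separately and the fit without LGK974 library 1. The LGK974 group was 10.3-fold below the control group (log2 -3.36, SE 0.56, edgeR adjusted p = 0.00173), with -2.63 without LGK974 library 1 and -4.93 without LGK974 library 2.

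Kupffer cells, the resident liver macrophages, carry much of the liver's ferroportin. The 8 Kupffer cell markers on rows in order summed to 237.8 and 248.0 CPM in control libraries, 230.2 and 228.8 in endotoxemic libraries and 140.5 and 177.4 in LGK974 libraries, and all 10 markers with reassigned symbols to 415.7 and 405.8, 264.9 and 257.4, and 171.7 and 204.3. None of the 10 was at 0 in every library. These markers also went opposite ways, since in the endotoxemic group relative to the control group 6 of the 10 were called lower and Marco alone higher (6.91 and 6.32 CPM in control, 97.0 and 74.8 in endotoxemic libraries), with a median log2 difference of -0.87. In bulk liver, fewer cells of a type and less RNA per cell cannot be told apart, and the part of the markers in the Slc40a1 result was not tested.

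Fth1, the heavy chain of the iron store ferritin, was at 1332 and 1887 CPM in control libraries, 1746 and 2669 in endotoxemic libraries and 2102 and 1426 in LGK974 libraries. The groups overlapped in every comparison. The endotoxemic group differed from the control group by 0.46 (95% interval -0.19 to 1.11, edgeR adjusted p = 0.229).

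Ftl1, the light chain, was at 1397 and 1310 CPM in control libraries, 552.5 and 571.1 in endotoxemic libraries and 827.0 and 738.6 in LGK974 libraries. No groups overlapped. Ftl1 fell 2.41-fold in the endotoxemic group relative to the control group (log2 -1.27, SE 0.18, edgeR adjusted p = 0.000603). The LGK974 group was 0.48 above the endotoxemic group (SE 0.18, edgeR adjusted p = 0.159), which did not pass. It passed in 2 of 17 alternative settings. One was the fit without LGK974 library 2, which leaves 1 LGK974 library, and the other counted the identical libraries as separate samples. The LGK974 group was 0.79 below the control group (log2 -0.79, SE 0.18, edgeR adjusted p = 0.00954), a call lost without either control library. Fth1 had 0.953 and 1.44 counts per Ftl1 count in control, 3.16 and 4.67 in endotoxemic and 2.54 and 1.93 in LGK974 libraries.

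Hpx encodes hemopexin, a plasma protein that binds free heme and is made by hepatocytes in the acute phase. It was at 2029 and 2377 CPM in control libraries, 13309 and 16787 in endotoxemic libraries and 11876 and 17930 in LGK974 libraries. The control libraries lay below all others, and the LGK974 libraries spanned both endotoxemic libraries. Hpx rose 6.83-fold in the endotoxemic group relative to the control group (log2 2.77, SE 0.26, edgeR adjusted p = 4.86e-05), and the LGK974 group differed from the endotoxemic group by -0.01 (95% interval -0.57 to 0.54, edgeR adjusted p = 0.982). The hepatocyte markers, 10 with reassigned symbols, summed to 121550 to 158790 CPM in control libraries and 84530 to 111310 in the others. In the endotoxemic group relative to the control group 9 of the 10 were called lower and the acute-phase gene Fgb alone higher (11742 and 8574 CPM in control, 48615 and 37351 in endotoxemic libraries), with a median log2 difference of -1.13. Their part in these results was not tested.

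**Figure D3:**
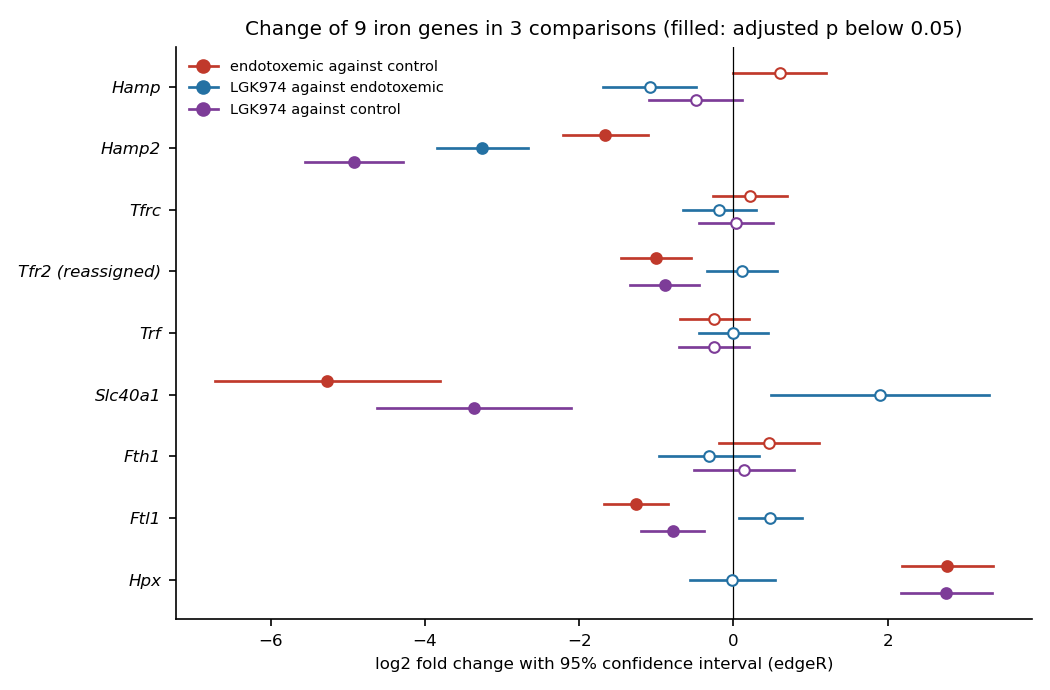
Log2 fold change (x axis) of 9 iron genes in 3 comparisons, with Tfr2 from reassigned symbols; points are edgeR estimates, lines are 95% confidence intervals and filled points passed an adjusted p of 0.05. Slc40a1 and Hamp2 lie farthest below 0 and Hpx farthest above.

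Other genes of iron handling were taken from 6 lists, of which 99 of 101 genes had a row and 12 rows were out of order. With reassigned symbols, 23 of 95 genes tested rose and 36 fell in the endotoxemic group relative to the control group, while 42.7% of all genes were called. As deposited the numbers were 19 and 41. The median log2 difference was -0.38 with reassigned symbols, against 0.01 for all genes tested. In the LGK974 group relative to the endotoxemic group 5 of the 95 were higher and 2 lower, against 5.73% of all genes.

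The counts of each list below stand beside 42.7% of all genes called with reassigned symbols and 43.4% as deposited (20.4% higher and 23% lower), and nothing particular to a list is read from them. Among the genes that control hepcidin, 10 of 31 rose and 10 fell with reassigned symbols (9 and 13 as deposited). Inhbb, the activin B subunit, was at 3.99 and 1.96 CPM in control libraries and 55.98 and 56.81 in endotoxemic libraries (log2 4.28, SE 0.37, edgeR adjusted p = 2.84e-05). Socs3, a feedback inhibitor induced by STAT3, rose by 3.61 and Id1 by 1.09, while the inhibitory Smad6 and Smad7 fell by 1.82 and 1.72 (edgeR adjusted p = 0.026 and 0.0363). Named after their values were seen, Atoh8 was -1.88 (edgeR adjusted p = 0.0021), Id2 -0.11 (0.796) and Id3 0.72 (0.1) with reassigned symbols. The Id1 call was lost without control library 1 or either endotoxemic library (edgeR adjusted p = 0.247, 0.0559 and 0.215), and those of Smad6 and Smad7 without any 1 of the 4 libraries compared (edgeR adjusted p = 0.0673 to 0.161 and 0.0603 to 0.186). The Smad7 call was also lost with limma-voom (adjusted p = 0.0625). Hfe2, the BMP co-receptor hemojuvelin, fell from 78.3 and 79.8 to 1.96 and 4.26 CPM and was at 23.6 and 62.3 in LGK974 libraries. This was a rise of 3.78 (SE 0.50, edgeR adjusted p = 0.00577) over the endotoxemic group. The rise was 3.3 without endotoxemic library 1 and 4.45 without endotoxemic library 2. Tmprss6, the protease that cleaves hemojuvelin, fell by 2.31 and differed by 0.23 (edgeR adjusted p = 0.597) between the LGK974 and endotoxemic groups.

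Several of these genes sat on rows out of order. Smad1, a BMP effector named after its values were seen, was -2.75 as deposited and 1.76 with reassigned symbols (edgeR adjusted p = 0.00144 and 0.00239). Stat3 was -1.36 as deposited and 2.03 with reassigned symbols, and Hfe was -1.20 and -0.53 (edgeR adjusted p = 0.0113 and 0.0983). The deposited Hfe call was lost without either control library or without endotoxemic library 2 (edgeR adjusted p = 0.0528, 0.0635 and 0.0946). Il6 failed the filter as deposited. When reassigned it had 0 and 7 counts in control libraries and 48 and 24 in endotoxemic libraries, a rise of 3.88 (SE 0.97) over a control level near the floor. Bmp2, a BMP of endothelial cells, fell by 3.84 as deposited and fell by 3.19 when reassigned. Bmpr1b was at 47.9 and 57.7 CPM in endotoxemic libraries against 0 in both control libraries as deposited, and failed the filter when reassigned, and Acvr1 was 8.80 as deposited and 0.32 (edgeR adjusted p = 0.395) when reassigned.

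All 11 tested genes of iron uptake and scavenging were called, with 9 rising and 2 falling (8 and 3 as deposited). Lcn2, which binds bacterial iron carriers, rose from 20.2 and 13.8 to 3371 and 4677 CPM (log2 7.89, SE 0.33, edgeR adjusted p = 6.28e-07). Ltf, the lactoferrin of neutrophils, was at 0 in both control libraries and at 3.71 and 2.77 CPM in endotoxemic libraries. Slc39a14, a carrier of iron not bound to transferrin, rose by 2.38. Scara5, a ferritin receptor, had 2 and 0 counts in control libraries, below the floor of 3 counts, and 58 and 50 in endotoxemic libraries. The size of its rise, 6.05, is therefore uncertain. With 228 and 252 counts of Scara5, LGK974 libraries were 1.55 above the endotoxemic libraries (edgeR adjusted p = 0.0481). Steap3, an iron reductase of endosomes, fell by 3.11, while Steap1, Steap2 and Steap4 of the same list rose by 5.70, 2.26 and 5.72 with reassigned symbols. Slc11a1, an iron carrier of macrophages, was -5.34 as deposited and 1.93 when reassigned. The 9 neutrophil markers with reassigned symbols summed to 8.56 and 11.9 CPM in control libraries, 1154.6 and 1188.6 in endotoxemic libraries and 825.4 and 930.4 in LGK974 libraries, and their part in the Lcn2 and Ltf results was not tested.

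Of the genes of ferritin and intracellular iron, 2 of 13 rose and 3 fell, a share close to that of all genes. Cp, the ferroxidase ceruloplasmin, rose by 1.18 and Fbxl5, which degrades iron regulatory protein 2, by 1.09. Aco1, iron regulatory protein 1, fell by 2.15. Ireb2 (iron regulatory protein 2) was -0.44 (edgeR adjusted p = 0.144) and Ncoa4, which delivers ferritin for breakdown, -0.04 (edgeR adjusted p = 0.904). Cisd1, an iron-sulfur protein of mitochondria, fell from 230.5 and 264.2 to 16.5 and 19.7 CPM and was 1.14 higher (edgeR adjusted p = 0.0182) in LGK974 than in endotoxemic libraries.

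Of the genes of heme scavenging and breakdown, 2 of 10 rose and 6 fell with reassigned symbols (0 and 7 as deposited). Hp, haptoglobin, was at 1294 and 1176 CPM in control libraries and at 0 counts in all others as deposited, and rose by 2.17 when reassigned. Hmox1, heme oxygenase 1, was -0.06 (edgeR adjusted p = 0.934) as deposited and 2.17 when reassigned. Lrp1, the hemopexin receptor, was at 286 and 242 CPM in control libraries and 0 elsewhere as deposited, and fell by 1.39 when reassigned. Abcg2, a heme exporter, fell by 1.05 and was 0.91 higher (edgeR adjusted p = 0.0497) in the LGK974 group, a call that was lost under many of the alternatives.

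Of the heme synthesis genes 7 of 11 fell in the endotoxemic group and of the mitochondrial iron genes 8 of 19, and none of either list was called higher. Alas1, the rate-limiting enzyme of heme synthesis in liver, was at 209.9 and 198.8 CPM in control libraries, 113.2 and 92.4 in endotoxemic libraries and 294.4 and 258.5 in LGK974 libraries. It fell by 0.99 and rose by 1.43 (SE 0.20, edgeR adjusted p = 0.00668) in the LGK974 group relative to the endotoxemic group. Cpox, Abcb6, Fdxr and Fdx1 fell by 2.92, 2.47, 1.64 and 1.47. The Fdxr call was lost without control library 2 or endotoxemic library 2 (edgeR adjusted p = 0.0503 and 0.073), that of Abcg2 without control library 1 or endotoxemic library 1 (0.0518 and 0.057) and that of Fbxl5 without control library 1 (0.0561). Alas2, the erythroid form, was 0.41 (edgeR adjusted p = 0.274), beside erythroid markers that summed over 7 rows to 2726 and 2947 CPM in control libraries, 6547 and 7684 in endotoxemic libraries and 4111 and 2679 in LGK974 libraries, and whose part was not tested.

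**Figure D4:**
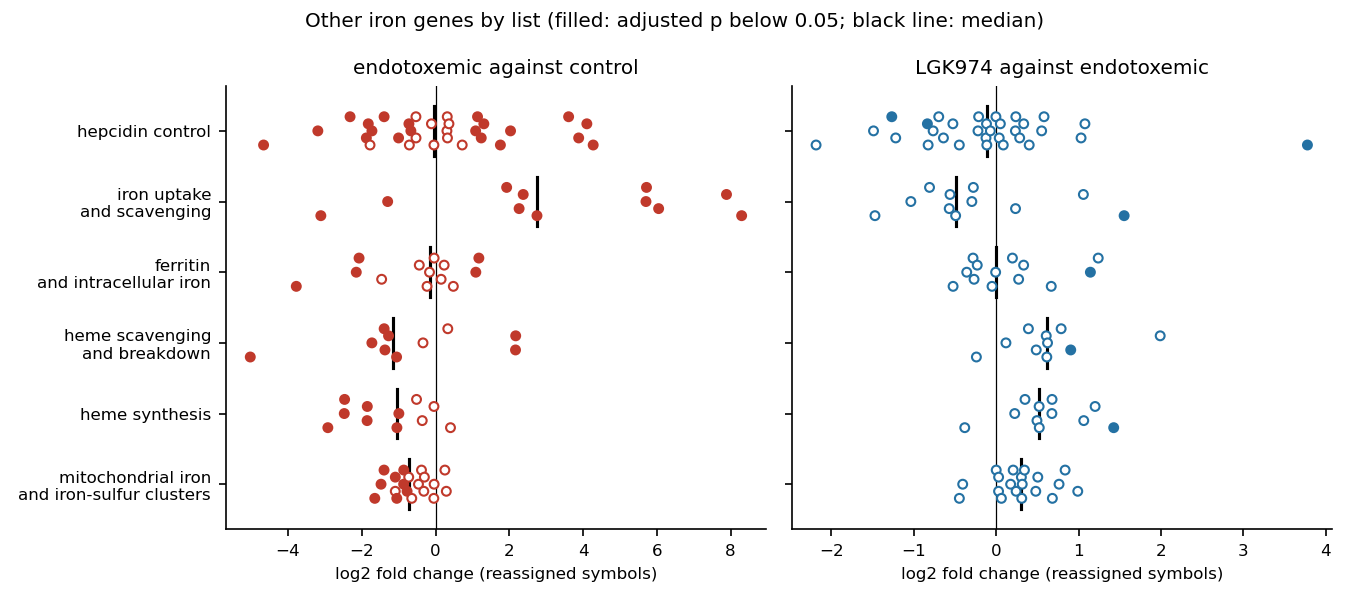
Log2 fold change (x axes) of other iron genes by list, with reassigned symbols, for the endotoxemic group relative to the control group and the LGK974 group relative to the endotoxemic group; points are genes, filled where edgeR's adjusted p was below 0.05, and black lines are list medians. In the first comparison the uptake list has a median of 2.75 and the heme synthesis list one of -1.05.

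In the LGK974 group relative to the control group, the members that did not pass were Hamp at -0.49 (95% interval -1.09 to 0.12), Tfrc at 0.03 (-0.44 to 0.51), Trf at -0.25 (-0.70 to 0.20) and Fth1 at 0.13 (-0.52 to 0.78). With 1 LGK974 library left, Hamp was -0.93 without LGK974 library 1 and -0.15 without LGK974 library 2, and Trf was -0.43 without LGK974 library 2. Hamp2 was lower by 30.3-fold and Hpx higher by 6.76-fold. Trf differed by -0.0029 and Fth1 by -0.32 (95% interval -0.97 to 0.33) between the LGK974 and endotoxemic groups.

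Of the regulators and partners fixed by name, those other than Hfe2 and Alas1 did not pass between the LGK974 and endotoxemic groups. The 2 iron-list genes called lower with reassigned symbols, named after their values were seen, were the BMP effector Smad5 at -1.27 (edgeR adjusted p = 0.0145) and the hepatocyte transcription factor Cebpa at -0.83 (edgeR adjusted p = 0.0425). As deposited, both calls were lost without either endotoxemic library (edgeR adjusted p = 0.09 and 0.147 for Smad5, 0.24 and 0.223 for Cebpa), and that of Cebpa also without either control library (0.115 and 0.113), with upper-quartile factors (0.0555) and with only the 2 groups in the fit (0.102). As deposited the log2 differences were 1.08 for Smad6, 1.03 for Smad7, -0.22 for Id1, -0.12 for Inhbb, -0.77 for Socs3, -0.56 for Slc39a14, -0.49 for Lcn2, -0.05 for Ncoa4, 0.33 for Aco1, 0.67 for Ireb2, -0.36 for Cp and 1.06 for Alas2. Some of these passed under an alternative. Without LGK974 library 1, which leaves 1 library in that group, Smad6 was 1.67, Smad7 1.61 and Slc39a14 -0.62. Without LGK974 library 2, which likewise leaves 1, Alas2 was 1.42 and Ireb2 0.86. Alas2 passed with no filter (edgeR adjusted p = 0.00146), with upper-quartile factors (0.0487) and with DESeq2 (DESeq2 adjusted p = 0.0222). Socs3 passed with no filter (edgeR adjusted p = 0.0179). With the identical libraries counted separately, which treats copies as replicates, Alas2, Ireb2, Slc39a14 and Cp passed.

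On rows out of order, Hfe was -1.24 as deposited (edgeR adjusted p = 0.0554, passing without LGK974 library 1, with no filter, with DESeq2 and with the identical libraries counted separately) and 0.04 with reassigned symbols. Stat3 was -0.27 and -0.45, and Hmox1 was -0.59 and 0.39. Il6 failed the filter and Hp was at 0 counts in both groups as deposited, and with reassigned symbols they were -2.19 and 0.61, which did not pass. Bmpr1b was lower by 4.83-fold as deposited (edgeR adjusted p = 0.00937), on a row out of order. The calls of Hfe2, Scara5, Cisd1, Abcg2 and Alas1 in this comparison were each lost without either endotoxemic library, where the edgeR adjusted p was 0.0522 and 0.0622 for Hfe2, 0.227 and 0.298 for Scara5, 0.129 and 0.196 for Cisd1, 0.243 and 0.293 for Abcg2 and 0.0614 and 0.119 for Alas1. That of Bmpr1b was lost likewise (0.0575 and 0.116). The Cisd1 call was also lost without either control library (0.0538 and 0.0528) and with only the 2 groups in the fit (0.0577). The Abcg2 call was also lost without either control library (0.113 and 0.109), without LGK974 library 2 (0.0624), with only the 2 groups in the fit (0.106), with RLE factors (0.0538), with limma-voom (0.0613) and with rows out of order left out (0.0507). With the replicate number in the model, Scara5, Abcg2 and Cebpa were lost as well.

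Genes whose levels followed a member over the 6 libraries were ranked by Pearson r of log2 CPM among 12154 genes on rows in order, as a description, since the libraries share their groups. Slc40a1 was followed most closely by Cpeb3, Steap3 and Prpsap1, Hamp by Cd83, Rhou and Armcx6, and Tfrc by Ap5b1, Trnt1 and Nsun6. Some of these had few counts, with Cd83 and Armcx6 at 0 CPM in LGK974 library 2 and Ap5b1 at 0.186 CPM in control library 1. No difference of Tfrc itself passed the test. For Hamp2, added after its values were seen, they were Cyp2b9, Clec4f and Sult2a1. An r above 0.95 was reached by 731 genes for Slc40a1 and by 29 for Hamp.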

How the data were processed

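The authors deposited raw counts per gene, as whole numbers without normalization, from libraries made with a Lexogen QuantSeq 3′ kit from 500 ng of total RNA. The submitters' processing notes name Bowtie2, edgeR and mm10, with no versions, and the counting tool is not given in the sources used here. Total counts were 9142116 to 15222439, and a floor of 3 counts covers counting error only.

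Rows out of genomic order were found from RefSeq positions, allowing 2 Mb, and 445 of 579 were matched to the gene of their place. Reassignment moved the endotoxemic and LGK974 counts and left the control counts with their symbol. Counts were fitted in R 4.3.3 with edgeR 4.0.16 (filterByExpr, TMM, quasi-likelihood F test, Benjamini-Hochberg adjustment over 12701 genes) in 1 model of 6 distinct libraries. The edgeR test and the row matching were also run on simulated data, and no result given here rests on those runs. An exact permutation test of 2 against 2 cannot go below 0.333 (two-sided).

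The 10 members and all lists were chosen with earlier results of these data known. Named genes were the members, 20 regulators and partners whatever their values (in the comparisons of the endotoxemic group), the 2 largest called rises and falls per list in the endotoxemic group relative to the control group, the 1 largest in the LGK974 group relative to the endotoxemic group, and the 3 genes most like Hamp, Tfrc and Slc40a1. Alternatives changed the filter, the scaling, the test (DESeq2, limma-voom), the libraries and the row symbols. Leaving out 1 library leaves 1 library in its group, so the p-value of that fit does not hold the group's spread. Counting the identical libraries separately treats copies as replicates.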

Additional observations from a re-analysis of the deposited data

How the results depend on the processing

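Depth, 2 libraries per group and the row symbols limit these results. In the endotoxemic group relative to the control group, 4 to 6 members were called over the alternatives (4 with rows out of order left out, which drops Tfr2, and 6 where Hamp joined), and leaving out 1 library moved the count over all genes from 5513 to between 3432 and 6719.

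The LGK974 group relative to the endotoxemic group depended most on the settings. In place of 1 member, 3 were called with no filter, 4 with the identical libraries counted separately, and 2 with at least 10 counts in every library, RLE or upper-quartile factors, DESeq2, limma-voom, rows out of order left out or reassigned symbols, and 1 to 4 without 1 library. Over all genes 714 became 1705 with no filter, 1124 with DESeq2, 3259 with the identical libraries counted separately, 269 with only the 2 groups compared, and 49 to 2242 without 1 library (49 without endotoxemic library 2, 2242 without LGK974 library 1). For LGK974 against control, 4328 became 2372 to 5369 without 1 library.

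Differences near 0 changed sign. In the LGK974 group relative to the endotoxemic group, Trf was 0.045 with upper-quartile factors, 0.0025 with the identical libraries counted separately and 0.00038 with only the 2 groups, and Hpx was 0.036 with upper-quartile factors. Without 1 library, Trf ran from -0.18 to 0.16, Hpx from -0.34 to 0.25, Fth1 from -0.63 to 0.015, Tfr2 from -1.05 to 0.47, Tmprss6 from -0.10 to 0.51, Id1 from -0.64 to 0.11, Inhbb from -0.47 to 0.17, Stat3 from -0.66 to 0.036 and Ncoa4 from -0.21 to 0.094. Against the control group, Tfrc of the LGK974 group ran from -0.047 to 0.11 and Fth1 from -0.17 to 0.41. Ncoa4 in the endotoxemic group relative to the control group was 0.0092 with no filter and 0.013 with upper-quartile factors, and without 1 library ran from -0.18 to 0.15, and Hmox1 from -0.37 to 0.25. The cause was not tested.

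Reassigned symbols turned Smad1 to 1.76, Stat3 to 2.03, Slc11a1 to 1.93, Hp to 2.17 and Hmox1 to 2.17 in the endotoxemic group relative to the control group, and Tfr2 to 0.11, Hfe to 0.037 and Hmox1 to 0.39 in the LGK974 group relative to the endotoxemic group.

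Replicate numbers did not pair the libraries (correlations of deviations 0.14, -0.0075 and 0.06 over 12701 genes). With the replicate block 5, 1 and 5 members and 5485, 685 and 4307 genes were called in the 3 comparisons.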
